A study of Mus musculus with 40 samples.

Results

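The fragments described here are those recovered from HE2 cells, the second step of hemogenic endothelium, sorted by how strongly the cloned fragment drove a fluorescent reporter. They were chosen by label: every list of enhancer fragments whose title names stage HE2, in both replicates and in all 4 reporter gates. This gave 8 of the 40 libraries and 85700 of the 458486 fragment lines of the series (18.7%). The lines described 80910 different HE2 fragments, in 21585 of the 75060 regions that the fragments of all stages form where they overlap. Of these different fragments 2 lay on unplaced scaffolds and entered no measure of location or sequence.

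All libraries came from HM-1 mouse embryonic stem cells, a line in which a construct placed at the Hprt locus restores drug resistance, so that each selected cell carries 1 fragment, cloned upstream of a Venus-YFP gene with a minimal promoter. Fragments were pieces of open chromatin cut out by the Tn5 transposase from 5 differentiation stages and cloned as a mixture. The methods describe a filter for open chromatin at the matching stage, and whether the lists used here passed it is not stated. The pool was differentiated in serum through blast culture, and cells with KIT, TIE2 and CD41 on their surface were taken as HE2 and split into a Negative, a Low, a Medium and a High YFP gate. Here negative means a fragment of the Negative gate, positive means the union of the Low, Medium and High gates of the same replicate, and the 2 replicates are named by the number in their labels. The labels do not say whether the replicates came from separate transfections, so tests across libraries measure only the spread between these libraries. The libraries hold genomic DNA of the insert, not RNA, so no expression marker can check the stage.

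Hemogenic endothelium is a transient vessel-lining cell that gives rise to blood. In its later step the cells still adhere and keep endothelial genes such as Cdh5, but switch on Runx1, the transcription factor needed for the endothelial to hematopoietic transition, and Itga2b, which encodes CD41. ETS, GATA, SOX, AP-1 and TEAD factors and the Notch pathway are known regulators of this change, acting through enhancers that lie in introns or far from the promoter. In its screen the study assigned each fragment an activity by the YFP gate into which it was sorted. It counted a region of open chromatin as enhancer positive if a positive fragment overlapped it. That rule, as stated, does not ask that negative fragments be absent. Sites without a positive fragment were called negative or unknown, because a negative fragment may miss the binding sites needed. The comparisons with the Negative gate below thus ask for more than the study's rule.

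The windows below show in letters the loci on which the results turn. Each is a stretch of 200 bases of the plus strand of GRCm38, the assembly that mm10 names. Except for Gata2, the window sits where most HE2 fragments of the region overlap, and capitals mark letters that match 1 of the 13 motifs searched (for these windows AP-1 TGANTCA, RUNX TGTGGT, PU.1 GAGGAAG, ETS ACAGGAAG, SOX ACAANGG, E-box CAGCTG, SMAD CAGACA, CEBP TTGCNNAA, RBPJ TGGGAA, and CTCF by its consensus, on either strand and with overlaps allowed). In the Gata2 window capitals mark only an E-box and a GATA site with 8 bases between them, CATCTGNNNNNNNNAGATAA.
Gata2, intron, chr6:88203095-88203294, from a region found in all positive gates of both replicates: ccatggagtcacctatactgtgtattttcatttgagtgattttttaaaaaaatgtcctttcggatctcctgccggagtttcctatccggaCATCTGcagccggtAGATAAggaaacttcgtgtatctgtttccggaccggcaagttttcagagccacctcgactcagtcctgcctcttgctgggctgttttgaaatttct
Runx1, intron, chr16:92822179-92822378, a region without a negative fragment: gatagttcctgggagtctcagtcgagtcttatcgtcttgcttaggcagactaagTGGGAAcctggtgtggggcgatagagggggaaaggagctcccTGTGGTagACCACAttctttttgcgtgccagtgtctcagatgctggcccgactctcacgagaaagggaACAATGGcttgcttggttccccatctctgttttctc
Runx1, upstream, chr16:92883964-92884163, a region without a negative fragment: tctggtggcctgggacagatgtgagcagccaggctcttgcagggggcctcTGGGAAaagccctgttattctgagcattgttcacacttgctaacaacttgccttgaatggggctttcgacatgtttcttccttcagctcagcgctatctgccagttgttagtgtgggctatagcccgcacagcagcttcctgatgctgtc
B4galnt1, exon, chr10:127170834-127171033, a region that holds identical fragments in both replicates: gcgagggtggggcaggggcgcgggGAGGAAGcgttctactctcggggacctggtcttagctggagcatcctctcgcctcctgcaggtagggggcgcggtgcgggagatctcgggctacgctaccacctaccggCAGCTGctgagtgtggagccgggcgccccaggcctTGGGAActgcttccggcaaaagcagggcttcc
Myo18a, upstream, chr11:77763208-77763407, a region found in all positive gates of both replicates: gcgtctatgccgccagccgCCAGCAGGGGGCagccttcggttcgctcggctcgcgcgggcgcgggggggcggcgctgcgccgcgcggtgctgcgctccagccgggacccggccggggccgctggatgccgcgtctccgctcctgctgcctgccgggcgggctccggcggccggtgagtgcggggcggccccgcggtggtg
Pex11g, intron, chr8:3464446-3464645, the region that passed the test: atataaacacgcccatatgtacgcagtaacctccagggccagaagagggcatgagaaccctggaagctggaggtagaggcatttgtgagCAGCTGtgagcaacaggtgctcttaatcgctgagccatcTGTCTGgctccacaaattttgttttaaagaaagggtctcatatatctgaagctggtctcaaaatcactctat
Cryz, intergenic, chr3:154477598-154477797, the region with most positive fragments in replicate 2: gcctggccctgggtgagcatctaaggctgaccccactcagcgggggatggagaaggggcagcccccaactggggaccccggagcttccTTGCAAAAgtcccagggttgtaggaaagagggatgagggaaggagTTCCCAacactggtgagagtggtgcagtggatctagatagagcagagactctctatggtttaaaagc

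Among 20140 regions with an HE2 positive fragment, 200-base windows chosen the same way held the RUNX letters in 18.5%, the AP-1 letters in 14.8%, the E-box letters in 17.3%, the RBPJ letters in 20.1%, the SOX letters in 13.8% and the CTCF consensus in 5.65%. The intronic Runx1 window held the RUNX letters in 2 places, next to each other on opposite strands, as well as a SOX and an RBPJ match. The PU.1 letters were in 13.5% of the windows, the SMAD letters in 21.9%, the CEBP letters in 7.11% and the ETS letters in 7.92%. The composite of an E-box and a GATA site, an arrangement known from the intronic Gata2 enhancer active in blood progenitors, occurred in 22 of the 20140 whole regions (0.109%) and in 14 of their 200-base windows (0.0695%), and Gata2 was among the 22. These matches describe letters and not bound sites.

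The replicates differed in depth before any comparison. In replicate 1 the Negative, Low, Medium and High libraries held 8430, 27370, 24871 and 18205 fragments. In replicate 2 they held 2727, 2502, 941 and 654. The positive side of replicate 1 therefore comprised 68427 different fragments against 8430 negative ones, so that the negative side made up 11% of the 2 sides added together. In replicate 2 it comprised 3471 against 2727, and the negative side made up 44.0%. A fragment found on both sides entered both totals, here and in the tests per gene or region. For this reason every test per gene or region kept the replicates as separate strata. The lists give each fragment once, without its reads, so a library's depth is its number of fragments.

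The same fragment was often recovered from both sides of the sort in replicate 2. There 1289 of the 2727 negative fragments were also positive (47.3%, 95% Wilson interval 45.4% to 49.1%, which like all intervals here covers counting error only). In replicate 1 this held for 782 of 8430 (9.28%, 8.68% to 9.91%). By pairs of gates, replicate 1 shared between 2.81% (Negative and High) and 4.21% (Negative and Low) of the smaller library, and replicate 2 between 18.8% (Medium and High) and 47.0% (Negative and Medium). On average over both replicates, pairs that include the Negative gate shared 5.98 percentage points more than pairs of positive gates, a difference that did not pass an exact permutation test over which gate is called Negative (two-sided p = 0.38; the smallest p that 16 arrangements allow is 0.0625). The excess was 0.182 points in replicate 1 and 11.8 in replicate 2. A share of the smaller library depends on the sizes of both, and the Negative library was the largest of replicate 2. As a share of all different fragments of a pair (Jaccard index) the mean excess was 3.21 points (same permutation test, p = 0.625). Of the positive fragments, 97.2% in replicate 1 and 84.6% in replicate 2 were found in a single positive gate. All 4 gates held the same fragment in 25 cases in replicate 1 and in 84 in replicate 2.

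**Figure D1:**
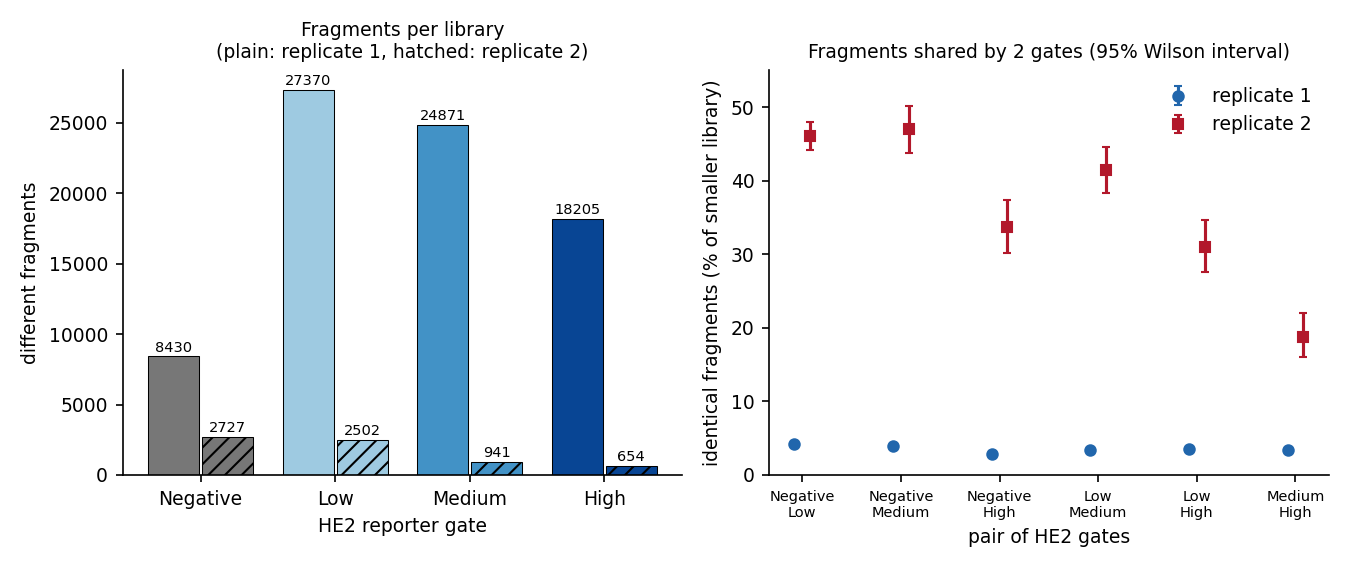
Left, the number of different fragments in each HE2 gate, plain bars for replicate 1 and hatched bars for replicate 2. Right, fragments with identical ends in a pair of gates as a percent of the smaller library, with 95% Wilson intervals; replicate 2 lies between 18.8% and 47.0% and replicate 1 between 2.81% and 4.21%.

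No gene passed the test for more positive fragments in HE2, and 1 passed it for fewer. Each fragment was given to the gene with the nearest start site, and 2778 of the 10002 genes so named had the 10 fragments needed for the test. The exact test, which compared a gene's positive fragments with those expected from the totals of each replicate, called 1 of the 2778 genes at a Benjamini-Hochberg adjusted p under 0.05 (0.036%). At an unadjusted p under 0.05 it found 5 genes with more positive fragments (0.18% of those tested) and 79 with fewer (2.84%). Since most fragments were positive, a gene without any negative fragment needed many fragments to reach a low p. Gm12708, with 31 positive fragments and none negative, had an unadjusted p of 0.044 in the exact test. Acvrl1, with 20 positive where 17.8 were expected and none negative, had 0.16. For genes with few fragments the lack of a call for more positive ones therefore says little. Of the tested genes 337 (12.1%) had no negative fragment, and observed over expected positive fragments was 1.01 at the median and ran from 0.827 to 1.12 between its 5th and 95th percentile.

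The gene called was Pex11g, which encodes a peroxisome membrane protein. It had 9 negative fragments where 1.10 were expected and 1 positive fragment, in the High gate (exact test, p = 2.06e-08, adjusted p = 5.73e-05), all in replicate 1. All lay in 1 intronic region at chr8:3464446-3464704, which was also the 1 region called. The 9 negative fragments began at only 2 positions and ended within a few bases of each other, and with fragments whose ends both lie within 5 bp counted as 1, or with 1 fragment per exact end, no gene passed. The call thus rests on 1 library, the Negative gate of replicate 1.

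The other genes with the lowest p for fewer positive fragments did not pass adjustment. Cd82, a tetraspanin of the cell surface, had 7 negative fragments against 1.54 expected and 7 positive ones (exact test, adjusted p = 0.30). Ralgds, an exchange factor for Ral GTPases, had 13 negative against 5.26 expected among 48 fragments in 5 regions (exact test, adjusted p = 0.79). Both loci kept positive fragments beside the negative ones. Kctd17 had 6 negative against 1.76 expected, Poll, a DNA repair polymerase, 8 against 3.30, Grid1, a glutamate receptor subunit, 5 against 1.21, and Grb2, an adaptor of receptor tyrosine kinase signaling, 5 against 1.43. The remaining members of the 10 were the predicted genes Gm20759, Gm20125 and Gm19935, with 7, 6 and 5 negative fragments.

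At the other end, the 10 genes with the lowest p for more positive fragments included 2 regulators of blood cells. Irf8, a transcription factor of monocytes and dendritic cells, had 21 Low, 17 Medium and 23 High fragments against 2 negative in replicate 1, and 1 High fragment in replicate 2. Over both replicates this made 59 positive fragments and 2 negative where 7.02 were expected (exact test, unadjusted p = 0.041, adjusted p = 1.00). Runx1 had 22 Low, 12 Medium and 20 High fragments against 2 negative in replicate 1. In replicate 2 it had 5 Low fragments, 1 Medium fragment identical to a Low one, and 2 negative ones. It thus had 58 positive fragments in all and 4 negative where 9.11 were expected (exact test, unadjusted p = 0.059). Both genes lay on the positive side in replicate 1, while in replicate 2 their counts were too few to set the sides apart.

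Of the rest, Igfbp3, a binding protein of insulin-like growth factors, had 29 positive fragments and no negative one, and Mdm1, a microtubule protein of centrioles, had 67 and 3. Itsn1, an endocytic scaffold, and Pik3ca, the catalytic subunit of a PI3 kinase, had 24 each and none. Psd2, Mc3r and Mtss2 had 40, 12 and 35 positive fragments against 1, 0 and 2 negative ones, and the predicted gene Gm12708 had 31 and 0. Their unadjusted p in the exact test lay between 0.039 and 0.060, and none passed adjustment.

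**Figure D2:**
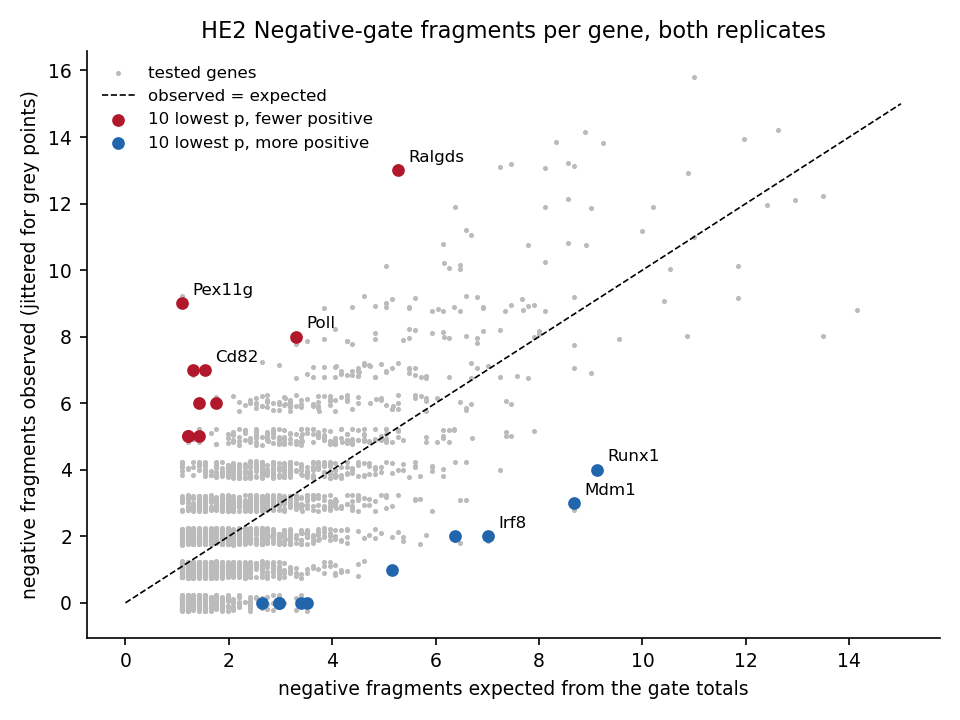
Negative fragments observed for each of the 2778 tested genes (vertical axis) against the number expected from the gate totals of each replicate (horizontal axis), both replicates summed. Red points are the 10 genes with the lowest p for fewer positive fragments and blue points the 10 for more; Pex11g lies at 9 observed against 1.10 expected and Runx1 at 4 against 9.11.

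The Runx1 fragments were spread over 16 regions, and the 2 with most fragments held no negative one, where 1.65 and 1.21 were expected (exact test, unadjusted p = 0.40 and 0.62). This was common: in replicate 1, 12169 regions held positive fragments only, 5393 held both kinds and 552 negative ones only. A region upstream of the gene at chr16:92883750-92884435 held 7 Low, 5 Medium and 3 High fragments of replicate 1. An intronic region at chr16:92822070-92822770, which contains an enhancer that the study tested alone, held 3, 4 and 4. Neither had a fragment in replicate 2. Another intronic region, at chr16:92818735-92819372, was found in both replicates, with 1 Low and 3 High fragments in replicate 1. In replicate 2 its Low and Medium gates held 1 and the same fragment, beside 1 Negative fragment. Of the 5 Low fragments of Runx1 in replicate 2, 4 lay in 1 region at chr16:92834363-92834647, which held no HE2 fragment of replicate 1.

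The genes with most positive fragments were not those with fewest negative ones. Gse1 had 105 positive and 12 negative fragments, Septin9, a cytoskeletal GTPase, 102 and 9, and Socs3, a feedback inhibitor of cytokine signaling, 100 and 8. Foxl1 had 93 and 9, Trim8 92 and 10, Myo18a 88 and 12, and A330074K22Rik 86 and 14. Tns3, Cxxc5 and Arhgap23 completed the 10, with 83, 82 and 80 positive fragments. Ets1 and Cuedc1 also had 80 and stood behind Arhgap23 by their fragments in all. None of them departed from the number expected by the exact test (unadjusted p from 0.13 to 1.00).

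Genes of the pathways and cell types of this transition lay near the same balance, though many had too few fragments to be able to pass for more positive ones. Of 24 endothelial identity genes 15 were tested and none was called. At an unadjusted p under 0.05 there was 1, Cdh5, the cadherin of endothelial junctions, beside 79 of 2778 over all genes. It had 32 positive and 9 negative where 4.83 negative were expected (exact test, p = 0.049). Ets1, an ETS factor, had 80 and 9, Kdr, the VEGF receptor FLK1, 60 and 5, and Flt1, another VEGF receptor, 37 and 2. The list's median of observed over expected positive fragments, called the ratio below, was 1.02, beside 1.01 over all tested genes.

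Of 25 blood transcription factor genes 12 were tested, and none passed in either direction even before adjustment (median ratio 0.976). Zfpm1, the GATA cofactor FOG1, had 57 positive and 11 negative fragments, Meis1 51 and 5, Mecom 31 and 7, Gata2 30 and 4, Tal1 26 and 3, Gfi1 20 and 5, and Spi1, which encodes PU.1, 14 and 2. Of 20 genes for blood surface proteins and cytokine receptors 4 were tested (median ratio 0.942), Itga2b with 12 positive and 3 negative fragments among them. Kit, another marker used in the sort, had 9 fragments in all, 8 of them positive, and was not tested. Tek, which encodes TIE2, had 13 positive fragments and 1 negative one.

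Genes of the signaling pathways gave no call either. Of the Notch pathway genes 3 of 14 were tested: Jag1, a ligand, with 16 positive and 2 negative fragments, Notch1, a receptor, with 12 and 1, and Lfng, a modifier of the receptor, with 9 and 1 (median ratio 1.01). Of the Hippo and TEAD genes 7 of 14 were tested (1.01), with 41 and 5 at Vgll4, a TEAD cofactor, and 35 and 4 at Tead1. Of the AP-1 genes 6 of 12 were tested (1.01), with 75 and 12 at Fos and 30 and 6 at Fosb. Of the TGF-beta, BMP and SMAD genes 10 of 22 were tested (1.02), with 55 and 6 at Smad6, an inhibitor of BMP signaling, 37 and 10 at Ski, a repressor of SMADs, and 33 and 4 at Smad3, a signal transducer of TGF-beta. No member of these 4 lists reached an unadjusted p under 0.05 in the exact test. Acvrl1 of the last list did not reach it even with no negative fragment among its 20.

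Lists of other cell types gave similar values, again with few fragments for most of the tested genes. Klf4, a pluripotency factor, had 55 positive and 12 negative fragments, and Klf2, known in both stem cells and endothelium, 34 and 1. Of the heart and smooth muscle genes Hand1 had 23 and 3, and of the neuronal synapse genes Snap25 had 10 and 1. In each of these 3 lists 3 genes were tested and none passed before adjustment; the median ratios were 1.09 for the pluripotency, 0.994 for the heart and smooth muscle, and 1.09 for the neuronal genes.

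Of 10 loci that the study examined one by one, 9 had an HE2 fragment assigned by nearest start site, Galnt1 being the one without. The Galnt1 enhancer that the study tested was not searched for by its position, and a fragment there could have been given to another gene. The study took Galnt1 from DNaseI data and names 1 Runx1 enhancer and elements of Spi1 as known before. Another Runx1 enhancer, inside the intronic region at chr16:92822070-92822770, it shows among the enhancers that its screen identified. The study also chose Sparc, Pxn, Eif2b3, Dlk1 and Hspg2 from enhancers that this screen had found, so positive fragments were part of that choice. The loci were also listed here with its results known, so they and the values below are no independent evidence. All 7 that were tested lay above the expected number of positive fragments (median ratio 1.04), as did 1483 of the 2778 tested genes, and none of the 7 passed before adjustment. Hspg2, a basement membrane proteoglycan, had 47 positive and 2 negative fragments, Sparc, a matrix protein, 44 and 2, and Sox17, an arterial endothelial factor, 22 and 2. Per 10000 fragments of a library, these loci held 13.0 in the Negative gate of replicate 1 and 36.9, 25.3 and 33.5 in the Low, Medium and High gates. In replicate 2 they held 14.7, 20.0, 10.6 and 0, from 4, 5, 1 and 0 fragments, so that no order of the gates could be seen at this depth.

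Gate by gate, the endothelial genes held 54.6, 54.8, 50.3 and 70.9 fragments per 10000 in the Negative, Low, Medium and High gates of replicate 1. In replicate 2 they held 33.0, 28, 42.5 and 45.9, from 9, 7, 4 and 3 fragments. The High gate was thus the highest in both replicates, in replicate 2 on 3 fragments. The blood transcription factor genes held 55.8, 48.6, 49.9 and 51.1 in replicate 1, where the Negative gate was highest, and 47.7, 60.0, 31.9 and 76.5 in replicate 2.

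**Figure D3:**
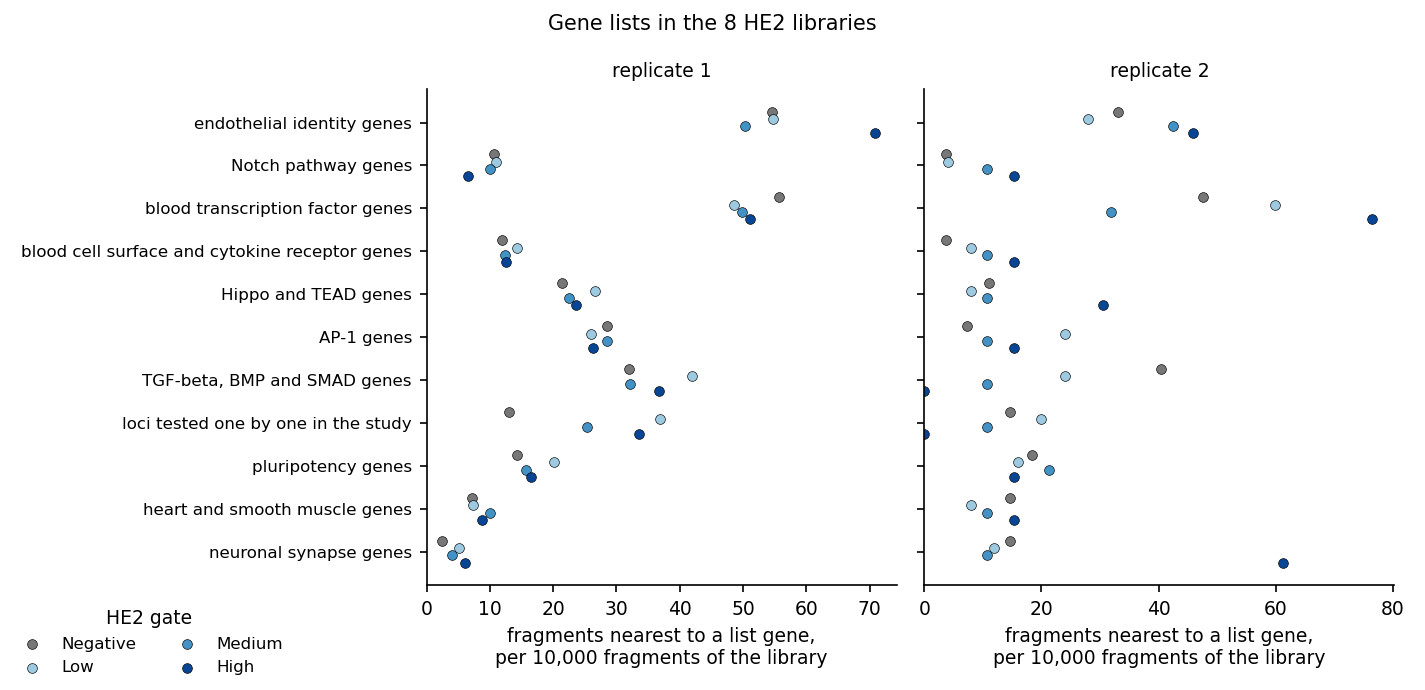
Fragments whose nearest start site belongs to a gene of each list, per 10000 fragments of the library, in each of the 8 HE2 libraries (left replicate 1, right replicate 2; colors are the gates). The High gate of the endothelial genes lies at 70.9 in replicate 1 against 50.3 to 54.8 in the other gates; values of replicate 2 rest on few fragments.

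The strength of the reporter did not separate genes either. Of 1420 genes with at least 10 High and Low fragments the exact test called none (0.0%) for a difference between High and Low, and 40 had an unadjusted p under 0.05. Tsc22d3, which encodes the glucocorticoid-induced protein GILZ, had 9 High fragments and 1 Low where 3.99 High were expected, and Aurkb, a mitotic kinase, had 21 and 11 where 12.8 were expected. Mtdh had 9 and 1, Ano1, a chloride channel, 15 and 5, and 3110082J24Rik 14 and 4. In the other direction Igfbp7, a secreted protein of the vessel wall, and Ippk, an inositol phosphate kinase, had 12 Low fragments each and no High one where 4.79 were expected. 3930402G23Rik had 4 High and 32 Low fragments, Gm26644 had 1 and 15, and Afap1l1 had 3 and 19. The lowest adjusted p was 0.35, at 3930402G23Rik, and nearly all of these fragments came from replicate 1.

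Location and sequence did not distinguish positive from negative fragments. In replicate 1 gene bodies held 51.6% of the negative and 51.4% of the positive fragments, and in replicate 2 53.9% and 55.2%. The median distance to the nearest start site was 17420.5 bp for negative and 17871 bp for positive fragments in replicate 1, and 23414 and 21570 bp in replicate 2, so the sign of the difference turned between replicates. Exons held 6.31% and 6.15% of negative and positive fragments in replicate 1, and 6.71% and 7.15% in replicate 2. Within 10 kb of a start site lay 34.9% and 34.1% in replicate 1, and 28.9% and 30.3% in replicate 2. Over 100 kb away lay 8.40% and 8.56%, and 16.5% and 15.6%. The mean GC content was 55% on both sides of replicate 1, and 50.7% for negative and 50.5% for positive fragments in replicate 2. None of 7 such measures passed the exact permutation test (lowest unadjusted p = 0.50, lowest adjusted p = 0.94; 16 arrangements cannot give a p below 0.0625). All of these measures but the exon share differed more between the replicates than between the sides.

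Only 0.459% to 1.99% of the fragments of a library lay within 1500 bp of a start site, so the lists describe distal elements. Over the ordered gates, none of the 7 measures passed a permutation test of a trend in 576 exact arrangements (lowest adjusted p = 0.86). The median length was 169, 156, 163 and 158 bp from Negative to High in replicate 1 and 201, 214, 219 and 239 bp in replicate 2, rising over the gates in replicate 2 but not in replicate 1.

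Motif shares gave no trend that passed the test. The share of fragments with the RUNX letters was 14.7%, 13.4%, 14.4% and 14.8% from Negative to High in replicate 1. In replicate 2 it was 15.3%, 18.2%, 16.3% and 22%. The High gate was the highest in both replicates, by a narrow margin in replicate 1, but High fragments of replicate 2 were also the longest, and per kb of fragment the RUNX matches numbered 0.910, 0.887, 0.928 and 0.968 in replicate 1 and 0.824, 0.882, 0.728 and 1.06 in replicate 2. The slope of the share was 0.13 percentage points per gate in replicate 1 and 1.84 in replicate 2, with a mean of 0.98 (exact permutation test, unadjusted p = 0.14, adjusted over the 13 motifs p = 0.39).

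The E-box letters, bound by factors such as TAL1, were in 16.4%, 15.3%, 15.7% and 15.7% of fragments in replicate 1 and in 13.1%, 13.6%, 15.4% and 17.3% in replicate 2. The AP-1 letters were in 11.6%, 12.2%, 11.7% and 11.6%, and in 8.51%, 8.64%, 9.25% and 10.9%. Both rose from gate to gate in replicate 2 alone. None of the 13 motifs, which also covered PU.1, ETS, GATA, TEAD, SOX, OCT, SMAD, CEBP, RBPJ and CTCF, passed adjustment in the exact permutation test (lowest unadjusted p = 0.083, for SOX). The replicates differed by more than the gates for CTCF, whose consensus was in 4.29% to 4.62% of fragments in replicate 1 and in 1.16% to 1.53% in replicate 2. As for RUNX, the High gate had the highest CTCF share in both replicates (exact permutation test of the slope, unadjusted p = 0.125). The RBPJ share rose by 1.98 points per gate in replicate 2 and had a slope of -0.285 in replicate 1.

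**Figure D4:**
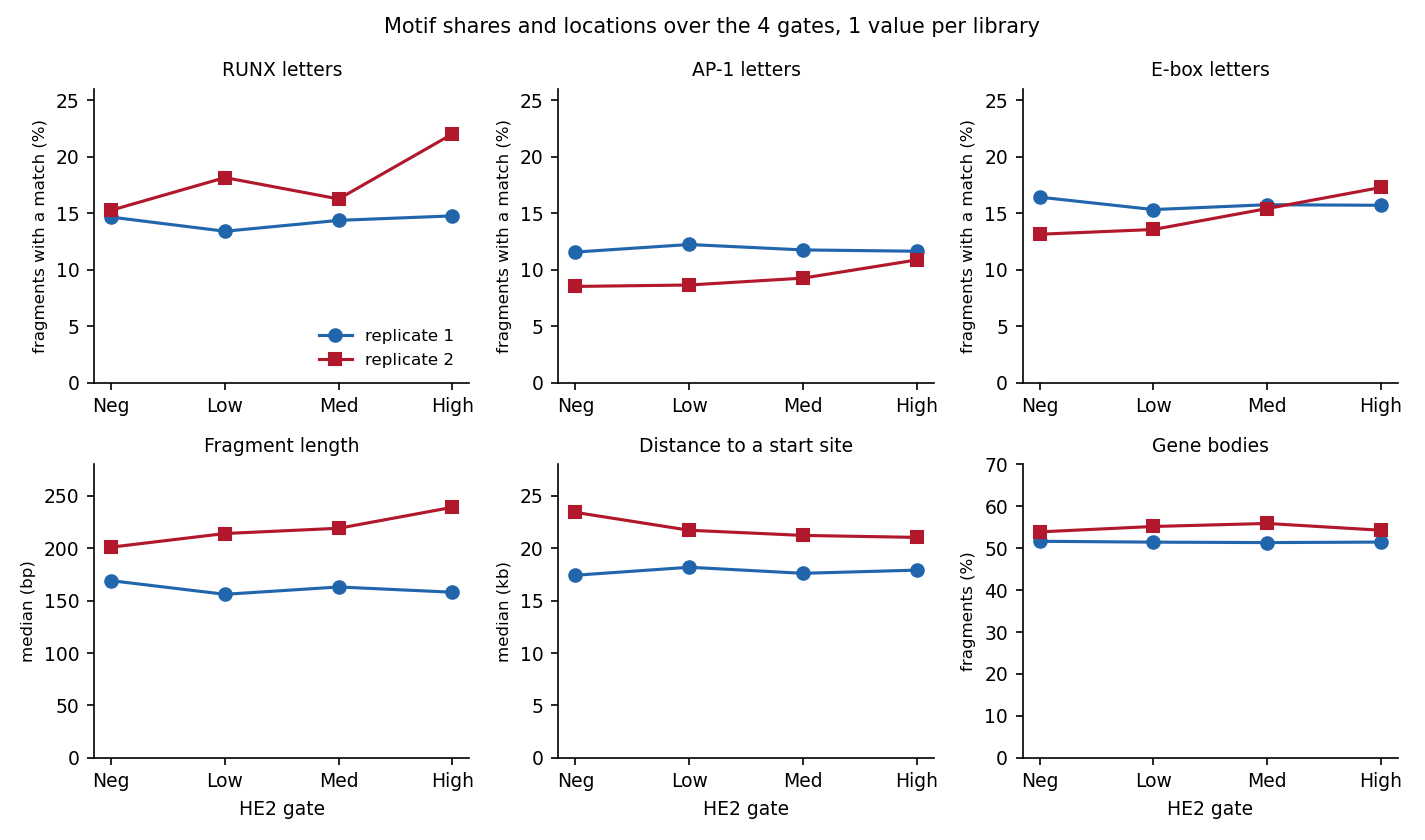
Each point is 1 HE2 library, ordered from the Negative to the High gate, for the share of fragments with the RUNX, AP-1 or E-box letters (top) and for the median length, the median distance to a start site and the share in gene bodies (bottom). The RUNX share of replicate 2 goes from 15.3% to 22% while that of replicate 1 stays between 13.4% and 14.8%.

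Recurrence of positive regions between replicates was also examined, and it was low at this depth. Positive fragments fell in 17562 regions in replicate 1 and in 3078 in replicate 2, and 499 regions were positive in both, which is 16.2% of those of replicate 2 (15% to 17.6%) and 2.84% of those of replicate 1. With replicate 1 thinned at random to the 3471 positive fragments of replicate 2, a mean of 4.81% of the regions of replicate 2 were positive in both. Identical fragments were far fewer: 74 of the 80910 occurred in both replicates, 61 of them on the positive side of both. A fragment found on both sides counts as positive here, and agreement beyond the share of positive fragments was not tested.

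A region with more positive fragments in replicate 1 was found more often in replicate 2, on either side of the sort. Of 4978 regions with 1 positive fragment in replicate 1, 1.23% were positive in replicate 2 and 0.804% had a Negative fragment there. Of 1653 regions with 8 to 15 fragments, 6.72% were positive (5.61% to 8.02%) and 4.96% had a Negative fragment (4.01% to 6.12%). Of 405 regions with 16 or more, 17.0% were positive (13.7% to 21.0%) and 11.1% had a Negative fragment (8.41% to 14.5%). Both shares thus went up together.

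The number of positive gates in replicate 1 showed the same rise: 1.38% of regions found in 1 positive gate, 2.21% of those in 2 and 5.34% of those in all 3 were positive in replicate 2. Among regions with the same number of fragments the gates mattered less. With 2 to 3 fragments the shares were 1.81%, 1.97% and 1.82% for 1, 2 and 3 gates. With 4 to 7 fragments they were 1.69% (0.466% to 5.97%), 2.53% (1.88% to 3.39%) and 3.67% (3.02% to 4.45%), with intervals that overlap.

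Regions of replicate 2 were found again in replicate 1 at similar shares on either side of the sort. Of the 1890 regions found only on the positive side of replicate 2, 15.5% were positive in replicate 1 (13.9% to 17.2%). Of the 1061 found only in its Negative gate, 15.3% were (13.2% to 17.6%). A Negative fragment of replicate 1 lay in 8.31% of the first (7.15% to 9.64%) and in 7.54% of the second (6.10% to 9.29%). Since most regions of replicate 1 held a positive fragment, these shares describe being found there more than the side. Seen from replicate 1, regions with a single fragment were positive in replicate 2 in 1.19% of cases (0.909% to 1.57%, 4271 regions) when that fragment was positive and in 0.967% (0.414% to 2.24%, 517 regions) when it was negative. These intervals overlap in both directions, and regions are not replicates, so no test was made. Of 668 regions with a fragment in both replicates, 139 were positive only in both and 2 negative only in both. Another 84 were positive only in replicate 1 and negative only in replicate 2, and 3 the reverse. Few regions of replicate 1 were negative only (552 against 12169 positive only), so few could match on that side. Whether the sides matched more often than these shares alone would give was not tested.

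**Figure D5:**
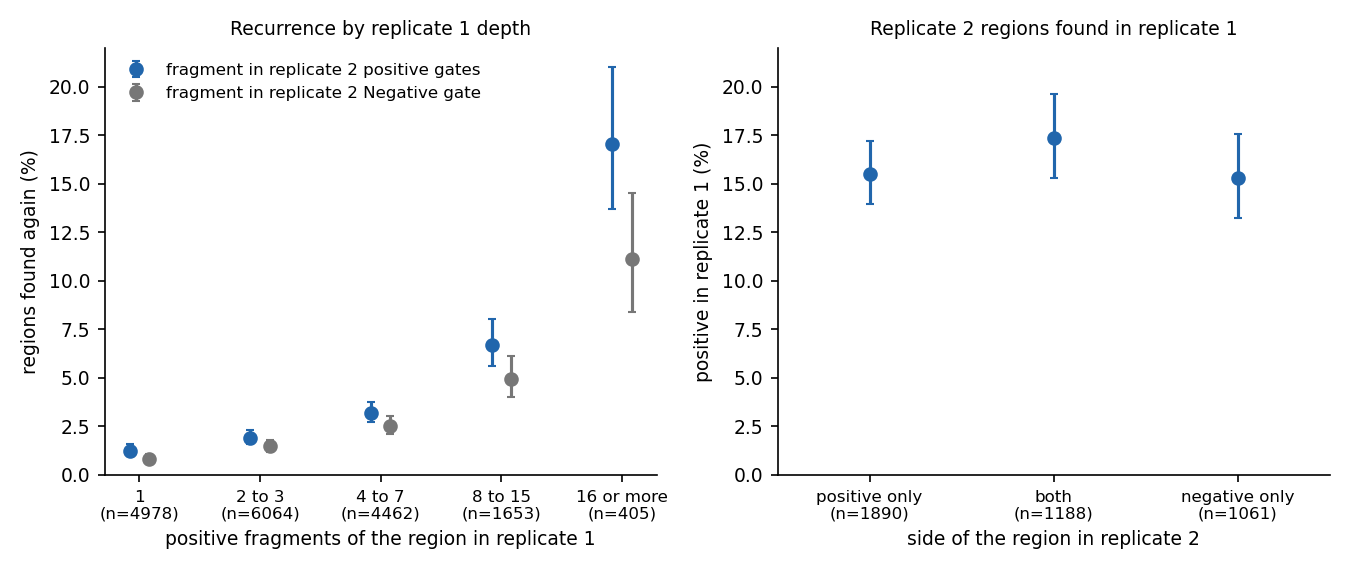
Left, the percent of regions found again in replicate 2, in its positive gates (blue) or its Negative gate (grey), by the number of positive fragments in replicate 1. Right, the percent of replicate 2 regions that were positive in replicate 1, by their side in replicate 2; bars are 95% Wilson intervals, and the values for positive only (15.5%) and negative only (15.3%) overlap.

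In regions positive in both replicates, the positive fragments of replicate 1 lay closer to start sites. The 4065 positive fragments of replicate 1 within them had a median distance of 8808 bp to a start site and a mean GC content of 59.3%, against 18396 bp and 54.8% for the other 64362. Gene bodies held 53.3% and 51.3%, and the median lengths were 173 and 159 bp. These are descriptions of fragments from the same 3 libraries, with no test. Regions with more fragments weigh more in them and were also found again more often, and the part of depth was not tested.

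In 11 regions every positive gate of both replicates held a fragment. All 11 also had a negative fragment, and all 11 had one in replicate 2, so this strictest rule of recurrence selected none free of the Negative gate. Of the 90 fragments of replicate 2 found in all 3 positive gates, 84 were also in its Negative gate. The rule thus made a negative fragment likely, and its presence says little about these regions. The Gata2 region, chr6:88202940-88204014, lies in an intron 4.70 kb from the nearest start site. It held 6 Low, 4 Medium and 1 High fragments and no negative one in replicate 1. In replicate 2 the Low, Medium and High gates held 1 and the same fragment, beside 2 Negative fragments. The E-box and GATA composite printed above, at chr6:88203185-88203204, was spanned by 4 fragments of this region, all from the Low gate of replicate 1. The fragments of replicate 2 in this region did not contain it. GATA2 is a factor needed for the emergence of blood stem cells from endothelium.

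The region in Myc, the growth regulator, at chr15:61986716-61987702, held 2 Low, 7 Medium and 2 High fragments and no negative one in replicate 1. In replicate 2 its 3 positive gates held 1 and the same fragment, beside 3 Negative ones. The B4galnt1 region, chr10:127170585-127171559, held 7, 8 and 6 with 2 Negative fragments in replicate 1. In replicate 2 it held 1, 1 and 2, from 2 different fragments, with 2 Negative ones. It was the region of this kind with most fragments identical between the replicates, 2 of them. The Myo18a region, chr11:77762795-77763810, held 8, 6 and 4 with 1 Negative fragment, and 3, 1 and 1, from 3 different fragments, with 2. Cbx7, a Polycomb protein, and Mxi1, an antagonist of MYC, had 17 positive fragments each in their regions, with 4 negative ones each. The regions nearest to Zfp658, 1700055C04Rik, 1700066B19Rik, Slc34a1 and 2900060B14Rik held 28, 23, 19, 8 and 4 positive fragments. In each of these regions but that of Zfp658, positive fragments were also found at all 4 of the other stages.

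The regions with most positive fragments in replicate 1 gave few fragments in replicate 2. They lay nearest to Zfp958 (57 positive and 7 negative fragments in replicate 1), Zmiz2 (55 and 6), Per1, a clock gene (54 and 7), Mier3 (53 and 9) and Clec11a, a hematopoietic growth factor (53 and 5). In replicate 2 they held between 0 and 3 positive fragments.

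The regions with most positive fragments in replicate 2 were stacks of fragments with a shared end. The Cryz region, chr3:154477557-154477878, held 13 Medium and 11 Negative fragments of replicate 2 and none of replicate 1. The regions nearest to Impg1, Gsg1l and Tbx1 held 9, 8 and 7 Low fragments beside 15, 12 and 6 Negative ones, again with none in replicate 1, and that nearest to 4930546C10Rik held 7 High fragments. Over the libraries, 27.8% of the Negative fragments of replicate 2 and 12.5% to 17.6% of its positive ones shared an exact end with another fragment of the same library, against 5.36% to 9.98% in replicate 1. Whether such stacks come from more than 1 integrated molecule was not tested.

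Region by region the test gave the same outcome as for genes. Of 2605 regions with at least 8 fragments the exact test called 1 (0.0384%), the Pex11g region, and 83 had an unadjusted p under 0.05. The next for fewer positive fragments were a region nearest to Cd82 at chr2:93471031-93471521, with 6 negative and 4 positive fragments (exact test, adjusted p = 0.32), and regions nearest to Gm10532, Kctd17 and Arhgef18, with 5 negative fragments each against 3, 3 and 5 positive ones. For more positive fragments, the regions at Pik3ca, Gm20544, Actb, Inka1 and Gstt2 held 24, 25, 25, 25 and 31 positive fragments, and only that of Gstt2 a negative one. Their unadjusted p in the exact test ran from 0.059 to 0.10.

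HE2 was compared with the other stages in the same measures. The share of negative fragments that were also positive was 9.28% and 47.3% in the 2 replicates of HE2. It was 6.74% and 28.6% in embryonic stem cells (ES), 8.30% and 38.3% in hemangioblast-like cells (HB), 71.3% and 55.8% in the preceding step of hemogenic endothelium (HE1), and 0% and 6.67% in hematopoietic progenitors (HP). The 0% stands for no shared fragment at all. HE2 lay 1.31 percentage points above the mean of the others, and neither this nor any of the 7 differences between positive and negative fragments passed the exact permutation test over stages (25 arrangements, smallest possible p = 0.04; lowest unadjusted p = 0.28, lowest adjusted p = 0.75). A single measure at 0.04 could not have passed adjustment over the 8 measures.

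Few HE2 regions were positive at HE2 alone. Of 20141 regions positive in either replicate, 78.8% were also positive at HE1, 55.6% at HP, 47.5% at HB and 36.7% at ES, where those stages held 136752, 44879, 51162 and 36737 positive fragments. At none of the other stages positive were 2460 regions (12.2%). Of the 499 regions positive in both replicates of HE2, 489 were also positive at HE1 and 3 at no other stage. All stages were drawn from the same cloned mixture, and the part of depth in these shares was not tested.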

How the data were processed

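The values that the authors deposited were coordinates in base pairs of unique fragments, 1 list per library, with no read count or score. Per the methods of the study, the insert was amplified from genomic DNA of sorted cells by PCR without molecular identifiers. The submitters' processing notes name Trim Galore, Bowtie2, SAMtools, bedtools, HOMER and the build mm10; versions for these lists are not given in the sources used here. The methods describe a mapping quality filter, removal of duplicates, filters against a background library and for open chromatin at the matching stage, and a split at 1500 bp from promoters; which of these the deposited lists passed through is not stated. A PCR product whose end is read a few bases off becomes a new fragment, so fragments are not fully independent molecules.

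Fragments were placed by their centre on RefSeq curated transcripts of GRCm38 (nearest start site, exon, intron). Regions were runs of overlapping fragments over all 40 libraries. Per gene (at least 10 fragments), per region (at least 8) and for High against Low, the test was an exact conditional test with replicates as strata, adjusted by the Benjamini-Hochberg method. Location, motif and sharing measures were compared by exact permutation of gate labels within replicates, and stages by exact permutation within replicates. All p-values are two-sided. Scripts were tested on simulated data. Calculations used Python 3.11.15 with numpy 2.4.6, pandas 2.3.3 and scipy 1.17.1, and figures matplotlib 3.10.9.

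Named genes were the 10 with the lowest p in each direction, the 10 with most positive fragments and 5 each way for High against Low; named regions were the 5 with the lowest p in each direction, and those in all positive gates of both replicates. From each of 11 gene lists, the members with most fragments were named, and Gata2, Tal1, Gfi1, Spi1, Kit and Tek were added for their roles. The regions with most positive fragments per replicate and the single Runx1 regions were named after their values were seen. Members, lists and tests were chosen with earlier results of these data known. Each Negative gate was the comparison for the positive gates of its own replicate number, so the replicate was kept as a block. Alternatives are given in the closing section.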

Additional observations from a re-analysis of the deposited data

How the results depend on the processing

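The single gene called, and the single region, depended on how fragments of 1 library were counted. The count of genes became 0 with fragments whose ends both lie within 5 bp collapsed, without the High gate and with at least 20 fragments per gene, and that of regions became 0 with the same collapse and with at least 15 fragments per region. With 1 fragment per exact end, an alternative added after the data were seen, both counts were 0. With no replicate block, that is with both replicates pooled in place of paired gates of each replicate, 4 genes and 9 regions were called, all with fewer positive fragments; pooling ignores that the share of negative fragments differed between the replicates. Leaving out 1 replicate gave 0 to 1 genes and 0 to 1 regions, the 0 without replicate 1, where 12 genes and 12 regions could be tested. No gene was called for High against Low under any alternative that left genes to test; without replicate 1 none had enough fragments.

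No location measure, motif or stage difference passed under any alternative, the fit without the block included. This says nothing of stability where no p could pass, which holds for the blocked positive against negative and sharing comparisons (smallest p 0.0625) and for every such comparison within 1 replicate. In the stage comparison (smallest p 0.04) no single measure could pass adjustment over its 8 measures. The same holds for a single one of the 7 measures in the unblocked positive against negative fit, so these outcomes say little of stability either. Leaving out 1 replicate moved the sharing difference from 0.182 to 11.8 percentage points and the RUNX slope from 0.129 to 1.84 per gate. Values that turned sign without replicate 2 are given as the range over leaving out each replicate: the positive minus negative difference ran from -0.225 to 1.36 percentage points for gene bodies and from -1844 to 450.5 bp for the median distance, the slope per gate from -2.6 to 11.9 bp for the median length, from -0.0256 to 0.765 percentage points for AP-1 and from -0.173 to 1.43 for the E-box, and the excess of HE2 over other stages in shared negative fragments from -12.3 to 14.9 percentage points. The share of replicate 2 regions positive in both replicates was 14.8% with regions built from HE2 fragments alone and 4.81% after thinning. The depth of replicate 2 limits every statement that needs both replicates.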
